A study of Mus musculus with 5 samples.

Results

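Guanylin (Guca2a) and uroguanylin (Guca2b), their receptor guanylyl cyclase C (Gucy2c) and the kinase downstream of it (Prkg2) were followed in mouse colon during colitis, as 4 of the 55471 genes in the deposited tables, picked by gene symbol. They were chosen with their levels under propyzamide and vehicle already known, so their differences between those groups are given as a description, without a test. All 4 passed the filter on low counts, as did 12024 genes in all.

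The propyzamide group (3 libraries) came from mice treated with this herbicide, which blocks microtubule assembly in plants, and the vehicle group (2 libraries) from mice given vehicle. All were male C57BL/6 mice of 11 weeks, and a piece of colon was taken 3 days after TNBS (trinitrobenzene sulfonic acid, a hapten that inflames the colon) in every one of them. The colon segment, the dose and the route are not stated in the labels, and colon without TNBS was not analysed here.

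Guanylin and uroguanylin are small peptides that gut epithelium secretes into the lumen. They bind guanylyl cyclase C on the apical membrane of epithelial cells, the receptor that heat-stable enterotoxins of Escherichia coli also use, and the receptor then makes cyclic GMP. Cyclic GMP activates the membrane-bound kinase cGKII, encoded by Prkg2, which opens the chloride channel CFTR and restrains the sodium-proton exchanger NHE3 (Slc9a3), so that salt and water are secreted and absorption slows. In rodents guanylin is known chiefly from the colon and distal small intestine, and uroguanylin from the more proximal small intestine.

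The ligand genes lie tail to tail on chromosome 4 of GRCm38, Guca2a from 119637704 to 119639471 on the plus strand and Guca2b from 119656607 to 119658954 on the minus strand, with 17136 bases between their ends. Each active peptide is the carboxyl end of its precursor, so the last 15 codons before the stop codon are shown to compare them (GENCODE M21 transcripts, chr4:119639228-119639272 on the plus strand and chr4:119656795-119656839 on the minus strand, 5′ to 3′), with the cysteine codons in capitals:
Guca2a-201: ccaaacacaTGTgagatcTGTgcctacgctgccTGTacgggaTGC
Guca2b-201: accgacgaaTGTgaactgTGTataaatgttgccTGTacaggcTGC
The 4 cysteine codons stand at the same 4 positions in both genes, and 29 of the 45 bases are identical. Of the 15 codons 5 are identical, the 4 cysteine codons among them.

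The 250 bases before the RefSeq start of each ligand gene (GRCm38.p6) are shown because these neighbouring genes differed so much in level. Capitals mark matches to AGATAA, the core bound by GATA factors, on either strand. The windows are chr4:119637482-119637731 on the plus strand and chr4:119658946-119659195 on the minus strand:
Guca2a: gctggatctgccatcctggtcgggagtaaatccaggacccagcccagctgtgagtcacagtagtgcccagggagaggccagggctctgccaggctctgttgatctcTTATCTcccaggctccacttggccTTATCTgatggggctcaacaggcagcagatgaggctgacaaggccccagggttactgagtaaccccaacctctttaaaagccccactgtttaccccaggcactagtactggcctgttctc
Guca2b: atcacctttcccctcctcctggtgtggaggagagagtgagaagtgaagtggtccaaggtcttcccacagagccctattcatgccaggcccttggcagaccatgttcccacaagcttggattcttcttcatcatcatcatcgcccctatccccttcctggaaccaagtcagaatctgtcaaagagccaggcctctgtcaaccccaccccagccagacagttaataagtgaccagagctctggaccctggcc
The Guca2a window holds 2 GATA cores, both on the strand opposite to the gene, beginning at -144 and -120 from the start, and the Guca2b window holds none of these letters. The matches do not overlap. Of 32851 RefSeq promoter windows of 250 bases, 9.99% hold the GATA core. The CDX motif TTTATNG (9.81%) and the HNF4 motif CAAAGTCCA (0.384%) had no match in these letters in either window. Promoter sequences for Gucy2c and Prkg2 were not used here.

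Guanylin had the highest TPM, a level per transcript length, of the 4 genes in every library. Guca2a stood at 2863, 3843 and 2440 CPM (counts relative to TMM-scaled library size) in propyzamide replicates 1 to 3, against 256 and 251 CPM in vehicle replicates 1 and 2. Every propyzamide library lay far above both vehicle libraries, which were nearly equal. The fitted log2 fold change was 3.59 ± 0.54 (SE), a 12.01-fold difference between group means of 3049 ± 720 CPM (SD, n = 3) and 254 ± 3.28 CPM (SD, n = 2). Summed counts were 19918 in propyzamide and 1062 in vehicle, so the ratio of pooled CPM, 12, had an exact 95% interval of 11.3 to 12.8 for counting error only. With rRNA-like and mitochondrial genes set aside, Guca2a made up 0.634%, 0.734% and 0.487% of the remaining counts in propyzamide, against 0.0618% and 0.0534% in vehicle, with Wilson 95% intervals from 0.472% to 0.751% over the propyzamide libraries and from 0.0487% to 0.0669% over the vehicle libraries.

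On the TPM scale Guca2a stood at 7340, 7101 and 4357 in propyzamide, against 1046 and 454 in vehicle. By TPM it ranked 3, 4 and 9 among all genes outside those classes in the propyzamide libraries, and 70 and 78 in the vehicle libraries. Of the 12024 tested genes, 42 (0.349%) had a log2 fold change at least as high as that of Guca2a, itself included. The same share was 11.6% for Guca2b, 22.96% for Gucy2c and 0.466% for Prkg2. The members were picked on this contrast, so nothing is read from these ranks.

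Uroguanylin was low and overlapped between the groups. Guca2b stood at 36.4, 22.1 and 20.1 CPM in propyzamide, against 21.5 and 5.11 CPM in vehicle. Vehicle replicate 1 lay among the propyzamide libraries, and vehicle replicate 2 lay alone below them on 9 counts. The fitted log2 fold change of 0.95 ± 0.55 (SE) became 2.34 with vehicle replicate 1 left out and 0.35 with vehicle replicate 2 left out. In TPM the levels were 90.8, 39.8 and 35.0 in propyzamide, against 84.6 and 8.99 in vehicle, with a mean of 55.2 ± 31.0 (SD, n = 3) against 46.8 ± 53.4 (SD, n = 2). Per transcript length Guca2a exceeded Guca2b in each library, 80.8-fold, 179-fold and 125-fold in propyzamide, against 12.4-fold and 50.5-fold in vehicle.

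**Figure D1:**
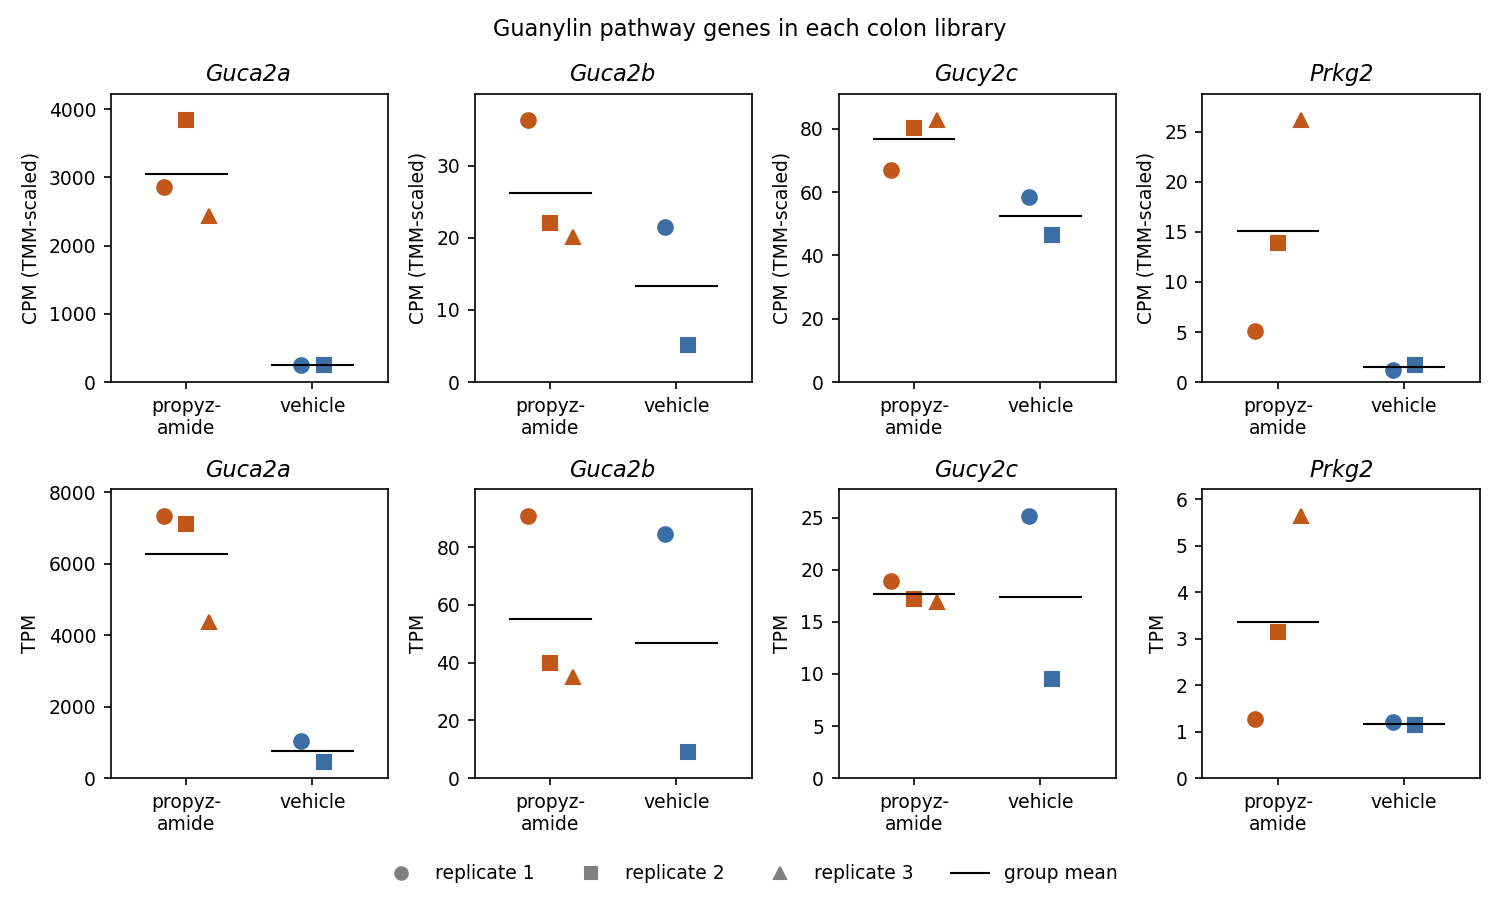
Levels of the ligands (Guca2a, Guca2b), receptor (Gucy2c) and kinase (Prkg2) in each library, as TMM-scaled CPM (top) and as the authors' TPM summed per gene (bottom), with a symbol per replicate and a line at the group mean. The 3 propyzamide libraries have 2440 to 3843 CPM of Guca2a, against 251 and 256 CPM in vehicle, while Guca2b overlaps between the groups on both scales and Gucy2c overlaps in TPM.

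The receptor differed little. Gucy2c (chromosome 6, 136697284 to 136781765, minus strand) stood at 67.0, 80.1 and 82.8 CPM in propyzamide, against 58.3 and 46.5 CPM in vehicle. The groups did not overlap, but the lowest propyzamide library and the highest vehicle library were close. The log2 fold change was 0.54 ± 0.34 (SE). In TPM Gucy2c stood at 18.9, 17.2 and 16.9 in propyzamide, against 25.2 and 9.53 in vehicle, so that vehicle replicate 1 was the highest of the 5 libraries and vehicle replicate 2 the lowest. The TPM total of a library includes rRNA-like and mitochondrial genes, which held 36.3% of the counts in vehicle replicate 1 and 50.9% to 63.3% in the other libraries; their part in the TPM values was not tested.

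The kinase was rare. Prkg2 (chromosome 5, 98929773 to 99037351, minus strand) had 15, 27 and 43 counts in propyzamide, or 5.10, 13.9 and 26.2 CPM, against 3 counts in each vehicle library, or 1.24 and 1.70 CPM. The groups did not overlap in CPM, and the propyzamide libraries spread widely among themselves. The fitted log2 fold change of 3.30 ± 0.85 (SE) was 2.64 without propyzamide replicate 3, and the ratio of pooled CPM, 9.06, had an exact 95% interval for counting error of 3.997 to 25.4. Olfactory and vomeronasal receptor genes served as a measure of stray reads. At their rate, the longest Prkg2 transcript would take 0.398, 3.17 and 0.9498 counts in the propyzamide libraries, against 6.19 and 3.87 counts in the vehicle libraries. With transcript lengths weighted by TPM the same rate gave 0.352, 2.34 and 0.711 counts in propyzamide, against 2.35 and 1.02 counts in vehicle. The 3 counts of each vehicle library lay below the estimate for the longest transcript and above the weighted one, and the propyzamide counts lay above both. In vehicle the weights come from how these same counts were assigned, with 84.2% and 100% of the TPM on the short transcript Prkg2-205. The weighted estimate therefore cannot show that vehicle Prkg2 lay above stray reads. In TPM Prkg2 stood at 1.28, 3.14 and 5.65 in propyzamide, against 1.20 and 1.14 in vehicle, and propyzamide replicate 1 was then close to vehicle. The vehicle TPM was mostly that of the short transcript, from 1.67 and 3.00 assigned counts, and the propyzamide TPM mostly that of the longest one. Since TPM is per length, these TPM levels depend on that assignment.

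Of the 4 members, 3 had CPM values in propyzamide above those in vehicle without overlap, as 16.7% of all tested genes did (20.8% lay below without overlap), and 2 had TPM values in propyzamide above those in vehicle without overlap, as 6.10% did. The members were picked on this contrast, so nothing is read from these counts.

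Within a library, the ratio of ligand to receptor sets aside differences in library composition that scale both genes alike. Guca2a TPM was 388, 413 and 257 times Gucy2c TPM in propyzamide, against 41.5 and 47.6 times in vehicle. The groups stood far apart, with a difference of 2.96 in the mean log2 ratio, and leaving out any single library gave 2.83 to 3.17. Guca2b TPM was 4.80, 2.32 and 2.07 times Gucy2c TPM in propyzamide, against 3.36 and 0.943 times in vehicle. These ratios overlapped, and their mean log2 difference of 0.68 became -0.24 with vehicle replicate 2 left out and 1.59 with vehicle replicate 1 left out. Gucy2c TPM was 14.8, 5.47 and 3.00 times Prkg2 TPM in propyzamide, against 20.98 and 8.36 times in vehicle, where the Prkg2 side rests on 3 counts a library.

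Levels were also set against the summed CPM of 10 epithelial genes (Krt8 and Lgals4 the most abundant). Guca2a equalled 34.0%, 54.4% and 39.4% of that sum in propyzamide, against 3.69% and 4.22% in vehicle, a mean log2 difference of 3.41. Gucy2c equalled 0.796%, 1.13% and 1.34% of it in propyzamide, against 0.839% and 0.782% in vehicle, where propyzamide replicate 1 lay between the vehicle libraries. The guanylin difference relative to this sum was nearly as large as that in CPM. The sum is not a measure of all epithelial RNA. Of its 10 genes 3, Krt8 among them, were higher and 1 was lower in propyzamide without overlap, as 16.7% and 20.8% of all tested genes were. In bulk tissue, fewer cells of a type and less RNA per cell cannot be told apart.

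**Figure D2:**
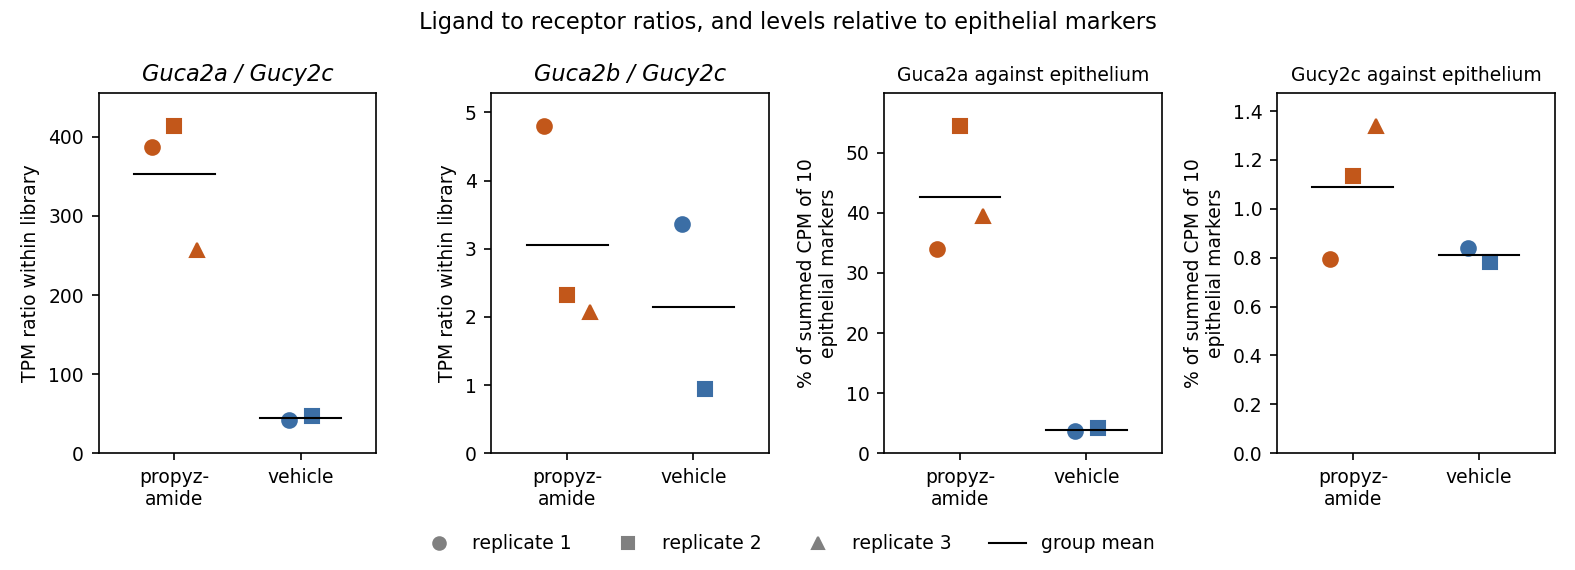
TPM ratios of each ligand to the receptor within each library (left pair), and Guca2a and Gucy2c CPM as a percentage of the summed CPM of 10 epithelial markers (right pair), with a symbol per replicate and a line at the group mean. Guca2a over Gucy2c lies at 257 to 413 in propyzamide, against 41.5 and 47.6 in vehicle, while Guca2b over Gucy2c overlaps.

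Markers of other cell types and of position along the gut are given beside these values. Of all tested genes, 16.7% were higher and 20.8% lower in propyzamide without overlap. Counts without overlap in the lists below stand beside those shares, and lists near them show no shift by that count. The summed epithelial markers were 8414, 7062 and 6188 CPM in propyzamide, against 6947 and 5954 CPM in vehicle, with 3 of 10 genes higher and 1 lower without overlap. Absorptive colonocyte markers summed to 6077, 10400 and 9571 CPM in propyzamide, against 2821 and 5066 CPM in vehicle (4 of 10 higher, 0 lower), and goblet markers to 6934, 741 and 4537 CPM, against 9332 and 3208 CPM (1 of 10 higher, 3 lower). Car1 was the most abundant absorptive marker (2434, 2827 and 6098 CPM in propyzamide, against 869 and 969 CPM in vehicle). Of the 10 absorptive markers, 7 had positive log2 fold changes. The 3 negative ones were Car4, Aqp8 and Ceacam20 (-0.57, -0.13 and -0.60). Guanylin has been described in both absorptive colonocytes and goblet cells.

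Genes of proximal and small intestinal epithelium summed to 305, 1157 and 605 CPM in propyzamide, against 46.3 and 52.2 CPM in vehicle, largely through Fabp2, the intestinal fatty acid binding protein (228, 837 and 453 CPM, against 7.44 and 2.84 CPM). Of these 12 genes, 6 were tested and 4 of those were higher without overlap; Fabp1, a defining gene of small intestinal enterocytes, had 0 counts in 4 libraries and 3 counts in propyzamide replicate 2. Genes of distal position (6 Hox genes) summed to 33.3, 30.3 and 18.3 CPM in propyzamide, against 224 and 279 CPM in vehicle. Of the 5 tested, 4 were lower and 1 was higher without overlap, and Hoxd13, Hoxd12 and Hoxd11 had 0 counts in all 3 propyzamide libraries, which allows up to 0.459 CPM over that group. The part of these differences in the guanylin level was not tested. The second index sequence of the libraries was also 1 per group with 0 shared, so any batch that goes with it and the treatment cannot be told apart.

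Smooth-muscle markers summed to 6760, 11140 and 11600 CPM in propyzamide, against 602 and 4123 CPM in vehicle, and 10 of the 12 genes were higher without overlap. Both Prkg2 and these sums were higher in all 3 propyzamide libraries than in vehicle and, among the 3, lowest in replicate 1. Within vehicle, Prkg2 had 3 counts in each library, where the sums were 602 and 4123 CPM. Propyzamide replicates 2 and 3 had sums of 11140 and 11600 CPM and 13.9 and 26.2 CPM of Prkg2. The part of smooth muscle in the Prkg2 level was not tested. Enteroendocrine markers (8 genes) summed to 73.1, 56.0 and 59.7 CPM in propyzamide, against 224 and 119 CPM in vehicle. Of the 7 tested, 1 was higher and 4 were lower without overlap. Immune markers (9 genes) summed to 45.9, 143 and 214 CPM, against 115 and 98.2 CPM. The most abundant of them was Lyz2 (25.5, 107 and 181 CPM, against 61.6 and 46.5 CPM). Of the 3 tested immune genes, 0 were higher and 1, Cd74, was lower without overlap. The part of enteroendocrine and immune cells in the Prkg2 level was not tested either.

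**Figure D3:**
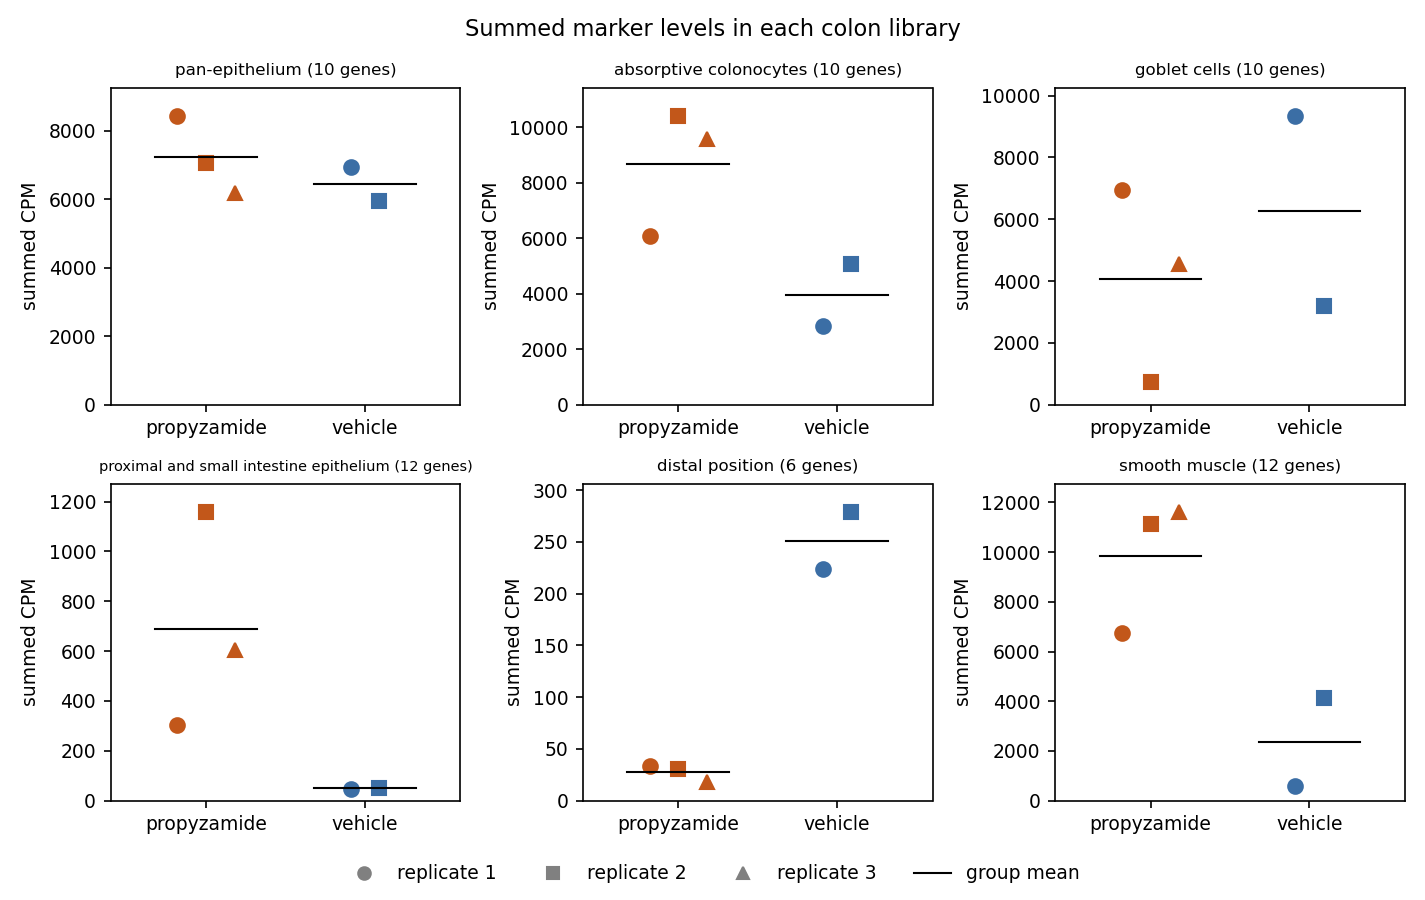
Summed CPM of 6 marker lists in each library, with a symbol per replicate and a line at the group mean. Epithelial sums overlap between the groups, sums of proximal and small intestinal genes and of smooth-muscle genes are higher in all 3 propyzamide libraries, and sums of distal-position genes are lower in them.

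The gene values above are sums over annotated transcripts, so transcript levels are described here and give no independent view of the gene differences. Guca2a has 1 annotated transcript in the tables. Guca2b-201 held 100% of the Guca2b TPM in 4 libraries and 94.8% in vehicle replicate 1, the rest being 3.25 estimated counts of Guca2b-202. For Gucy2c the tables hold a transcript of 27 exons (Gucy2c-201) and one of 26 exons (Gucy2c-202) that lacks exon 14. That exon, shown because it is what mainly tells the transcripts apart, spans 72 bases, all coding (chr6:136728331-136728402, minus strand, 5′ to 3′, no capitals):
Gucy2c-201 exon 14: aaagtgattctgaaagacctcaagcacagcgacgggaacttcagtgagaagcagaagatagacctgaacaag
Gucy2c-201 was assigned 51.6%, 0% and 57.7% of the Gucy2c TPM in propyzamide, against 100% and 0% in vehicle. The assignment thus spanned the whole range within vehicle, on 141 and 82 counts, and no difference between the groups was larger than that spread. The transcripts share 3863 bases, and how many reads covered the exon is unknown here.

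For Prkg2 the long transcript Prkg2-203 (19 exons, 4968 bases) was assigned 14.37, 23.86 and 38.28 estimated counts in propyzamide, against 1.33 and 0 in vehicle. The short transcript Prkg2-205 (5 exons at the 3′ end of the gene, 1308 bases, 282 of them coding) was assigned 0.63, 3.14 and 4.72 counts in propyzamide, against 1.67 and 3.00 in vehicle. The short transcript overlapped between the groups, and the long one was higher in each propyzamide library than in either vehicle library. The other 3 annotated transcripts were assigned 0 counts throughout. In vehicle these assignments rest on 3 counts per library. The only gene overlapping a member, the processed pseudogene Gm3470 within Prkg2, had 0 counts in every library.

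**Figure D4:**
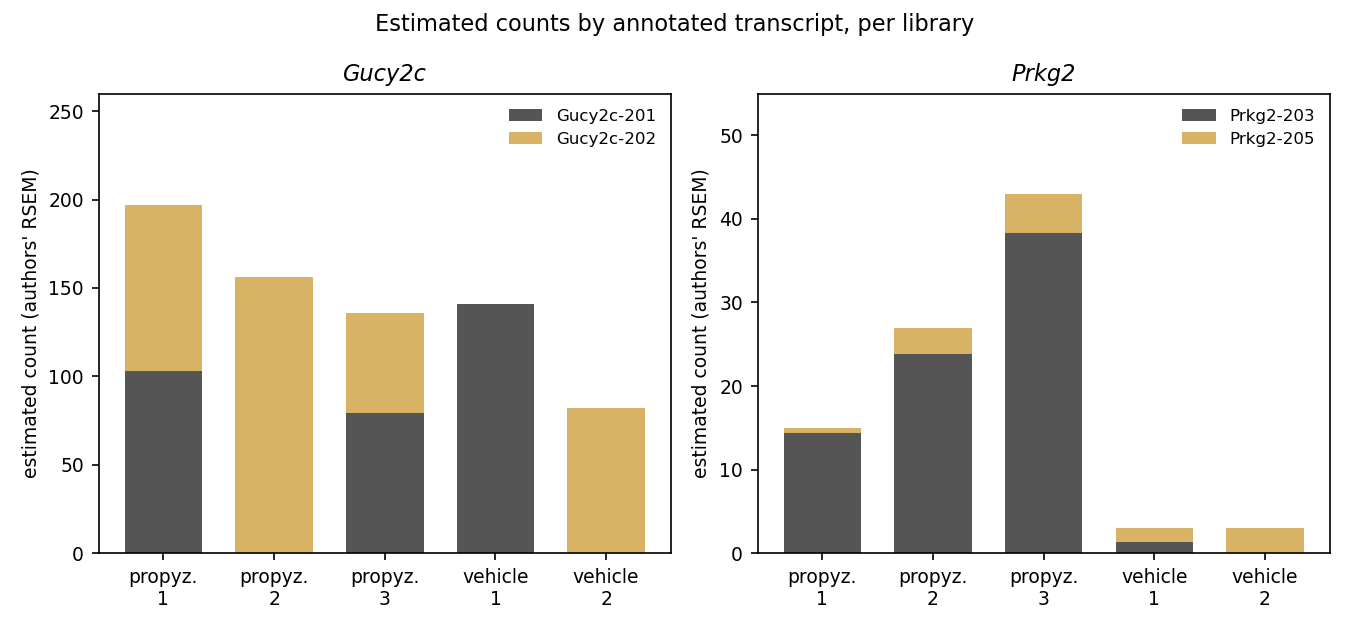
The authors' estimated counts by annotated transcript of Gucy2c (left) and Prkg2 (right) in each library; bar heights are the gene's count and shades the transcripts. Gucy2c-201 takes all 141 counts in vehicle replicate 1 and none of the 82 in vehicle replicate 2, and Prkg2-203 reaches 38.28 counts in propyzamide replicate 3 against at most 1.33 in vehicle.

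The rest of cyclic GMP signalling was read from a list of 68 genes, of which 43 were tested. With edgeR's quasi-likelihood test and adjustment over all tested genes, 2 rose (Slc9a3 and Cdx2), 0 fell and 41 did not pass an adjusted p of 0.05. Among all tested genes 1.90% passed, 0.690% rising and 1.21% falling; the list was drawn up with earlier results of these data known, Slc9a3 among them. At an unadjusted edgeR p under 0.05, 10 of the list's tested genes were higher and 3 lower, where 8.52% and 9.65% of all tested genes were. DESeq2 called 3 higher and 0 lower, and 2.16% and 2.54% of all tested genes. The median log2 fold change of the 43 was 0.36, against -0.018 over all tested genes, with 25 positive and 18 negative. Leaving out vehicle replicate 1, vehicle replicate 2 or propyzamide replicate 2 left 1 gene higher, and leaving out propyzamide replicate 1 gave 4.

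Of the transport proteins that cyclic GMP acts on, 1 of 8 tested genes rose. Slc9a3, the NHE3 exchanger that the pathway restrains, had 216, 332 and 153 CPM in propyzamide, against 4.96 and 7.94 CPM in vehicle (log2 fold change 5.19 ± 0.53, edgeR adjusted p = 0.00204). All 3 propyzamide libraries lay far above vehicle, and the call held without each library in turn (edgeR adjusted p 0.000753 to 0.0249). Cftr, the chloride channel opened by cGKII, stood at 55.4, 47.2 and 36.5 CPM in propyzamide, against 29.8 and 29.5 CPM in vehicle (0.65 ± 0.36, edgeR adjusted p = 0.374). Slc9a2, the NHE2 exchanger, stood at 1.70 ± 0.45 (edgeR adjusted p = 0.0681), and Slc26a3, the chloride-bicarbonate exchanger of colonocytes, at 0.44 ± 0.57 (edgeR adjusted p = 0.750). The other 4 tested genes had negative values. Kcnq1 and Kcne3 stood at -0.97 and -1.01 (edgeR adjusted p = 0.333 and 0.228), both lower without overlap. Slc9a3, Slc9a2 and Cftr were higher without overlap. That made 3 higher and 2 lower of 8, where 16.7% and 20.8% of all tested genes were. Slc4a4 and Slc12a2 stood at -0.91 and -0.33 (edgeR adjusted p = 0.492 and 0.676). The median of the 8 was 0.05.

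None of the 5 tested PDZ scaffolds and anchors, which hold transporters and kinases at the apical membrane, passed, and 0 were called in either direction. Slc9a3r1, the scaffold NHERF1, stood at 130 ± 25.3 CPM in propyzamide (SD, n = 3) and 70.8 ± 43.5 CPM in vehicle (SD, n = 2), a log2 fold change of 0.88 (edgeR adjusted p = 0.303). Slc9a3r2, the scaffold NHERF2 through which cGKII reaches NHE3, stood at -1.26 ± 0.64 (edgeR adjusted p = 0.329). Pdzk1 had 3 counts in 1 propyzamide library and 4 over vehicle and was not tested.

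Enzymes that degrade cyclic GMP did not pass in any of 8 tested cases, with 5 positive and 3 negative values. Pde5a, the cyclic GMP-specific phosphodiesterase, stood at 38.7, 114 and 51.1 CPM in propyzamide, against 20.3 and 40.9 CPM in vehicle (1.16 ± 0.50, edgeR adjusted p = 0.245), with overlap between the groups. Pde3a, which cyclic GMP inhibits, stood at 1.28 ± 0.44 (edgeR adjusted p = 0.144) and Pde2a, which cyclic GMP stimulates, at -2.19 ± 0.92 (edgeR adjusted p = 0.228). The exporters Abcc4 and Abcc5 stood at -0.46 and 1.03, with edgeR adjusted p of 0.740 and 0.225.

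Other sources and effectors of cyclic GMP were scarce or did not pass. Gucy1a1, a subunit of the nitric oxide-sensitive cyclase, which smooth muscle uses, stood at 15.6, 38.5 and 45.1 CPM in propyzamide, against 6.20 and 15.3 CPM in vehicle (1.63 ± 0.56, edgeR adjusted p = 0.147). It passed without the filter on low counts and without propyzamide replicate 1, with edgeR adjusted p of 0.0281 and 0.0469. Npr1, the receptor of atrial natriuretic peptide, had 3 to 4 counts in each propyzamide library and 9 and 7 in vehicle. The rate of stray reads was 0.0802, 0.639 and 0.191 counts per kilobase in propyzamide, against 1.25 and 0.780 in vehicle. It was not subtracted from the genes of this list, which limits those with few counts. Nppa and Nppb had 0 counts in all 5 libraries, which allows up to 0.459 CPM in propyzamide and 0.718 CPM in vehicle. Prkg1, the soluble kinase of smooth muscle, stood at 2.38, 20.5 and 1.83 CPM in propyzamide, against 3.31 and 5.11 CPM in vehicle (edgeR adjusted p = 0.664). Prkg1 was high in propyzamide replicate 2 alone, and Prkg2 was highest in propyzamide replicate 3. The 6 subunits of the cyclic AMP kinase all had positive values, with a median of 0.40, and 0 passed.

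Of 10 tested transcription factors of gut epithelium, 1 rose. Cdx2, an intestinal homeobox factor that has been described at the GUCY2C promoter in human cells, had 20.7, 40.6 and 14.0 CPM in propyzamide, against 2.90 and 1.14 CPM in vehicle (3.54 ± 0.68, edgeR adjusted p = 0.0274). The vehicle values rest on 7 and 2 counts. Leaving out propyzamide replicate 2 ended the call (log2 fold change 3.02, edgeR adjusted p = 0.0539). So did limma on log2(TPM + 1) and log2(TPM + 0.1), with adjusted p of 0.0514 and 0.0931. Leaving out vehicle replicate 1 or 2 gave log2 fold changes of 4.38 and 3.15. Those fits hold 1 vehicle library and no spread within vehicle, so the call cannot be judged from them. Hnf4a, a nuclear receptor of gut epithelium, stood at -0.05 ± 0.33 (edgeR adjusted p = 0.955), with 171, 170 and 133 CPM in propyzamide, against 164 and 165 CPM in vehicle. Gata6 stood at 0.72 ± 0.42 (edgeR adjusted p = 0.405).

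**Figure D5:**
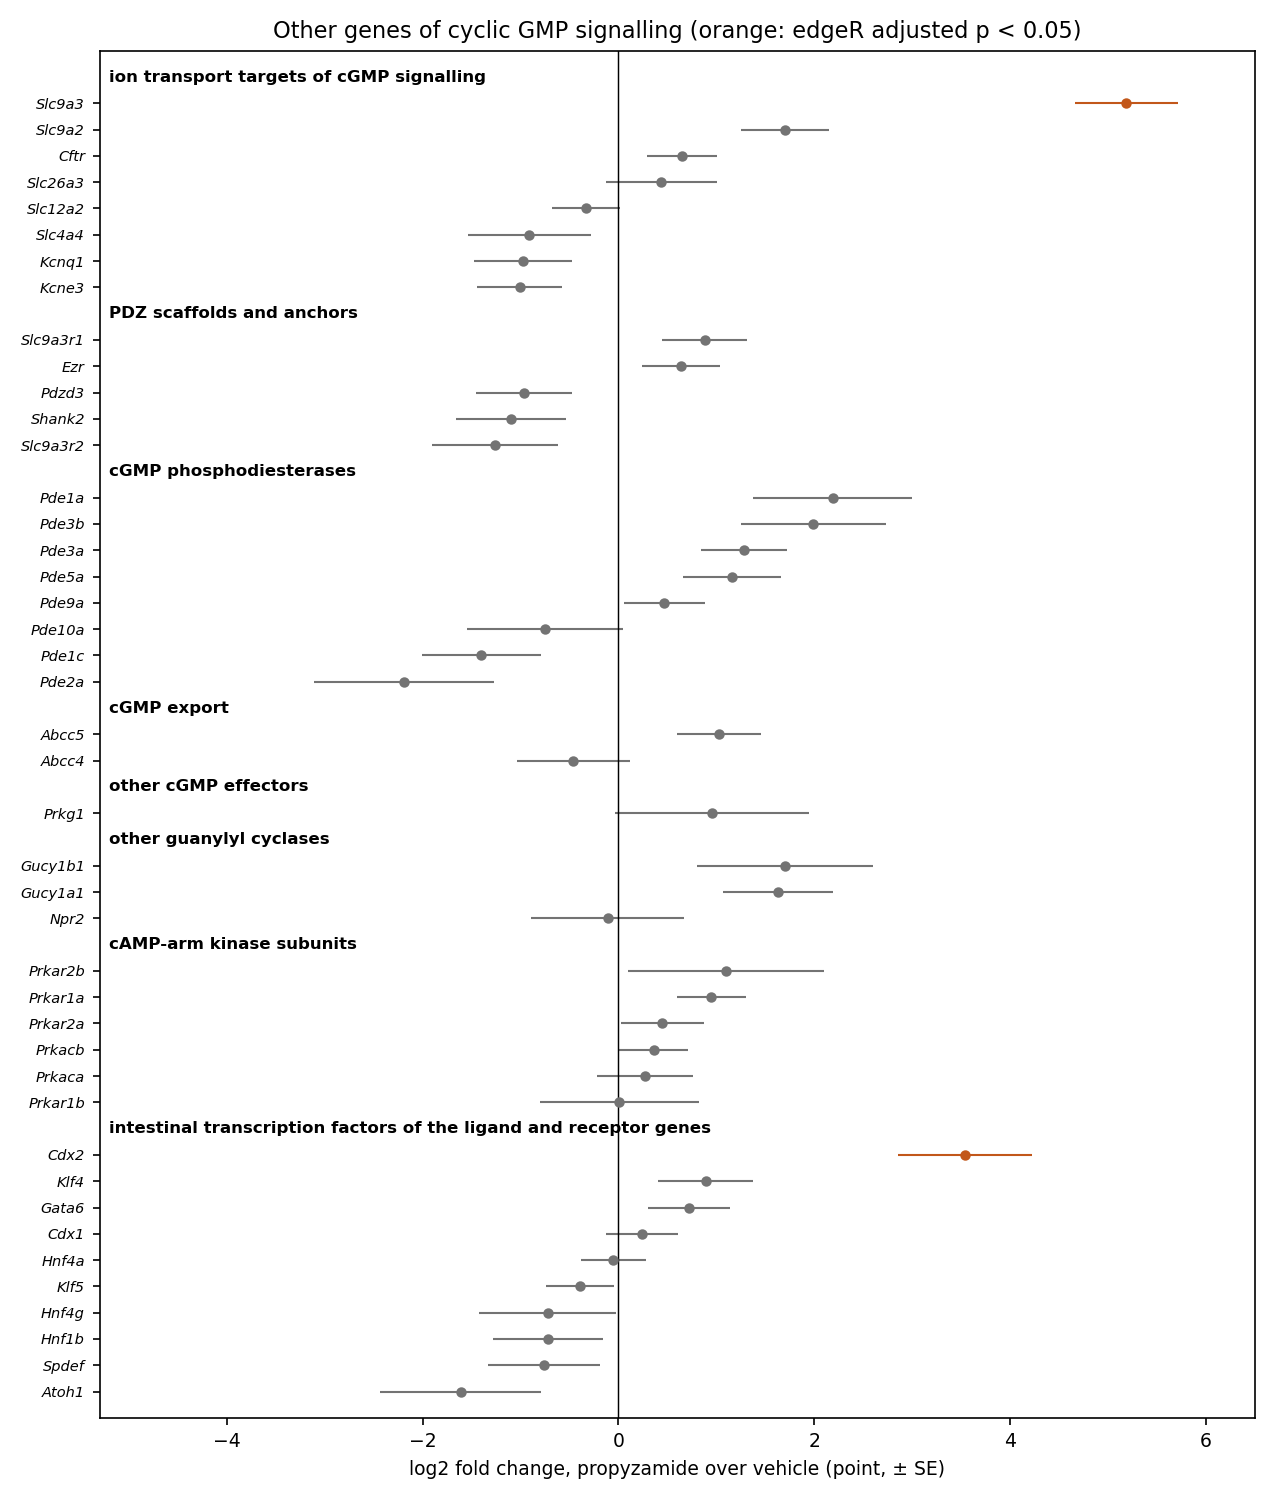
Log2 fold change of propyzamide over vehicle (point, with SE as bars) for the 43 tested genes of the cyclic GMP list, grouped by role; orange marks an edgeR adjusted p under 0.05. Slc9a3 (5.19) and Cdx2 (3.54) are the called genes, and the others lie on both sides of 0.

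Genes near the ligand genes were read from the same test. Within 200 kb of the Guca2a start lay 10 other genes besides Guca2b, of which 4 were tested and 0 passed in edgeR or DESeq2. Each of the 2 methods had 1 at an unadjusted p under 0.05. Over all tested genes, edgeR had 8.52% higher and 9.65% lower at that unadjusted p, and 1.90% passed. With 4 genes tested, nothing is read from these counts. Foxj3, a forkhead factor and the nearest gene upstream of Guca2a, stood at 15.3, 27.7 and 26.2 CPM in propyzamide, against 24.0 and 23.3 CPM in vehicle (-0.05, edgeR adjusted p = 0.968). Hivep3, a zinc-finger factor on the far side of Guca2b, stood at 6.12, 3.08 and 2.44 CPM in propyzamide, against 21.5 and 14.8 CPM in vehicle (-2.16, edgeR adjusted p = 0.0681). It passed without scaling beyond library size, without the filter on low counts and without propyzamide replicate 1, with log2 fold changes of -2.56, -2.02 and -2.73 and edgeR adjusted p of 0.0243, 0.0400 and 0.0365; over all alternatives its adjusted p lay between 0.0243 and 0.538. Rimkla and Frg2f1 stood at 0.13 and -1.55, with edgeR adjusted p of 0.963 and 0.552.

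The genes whose profile over the 5 libraries was most like each member's were found by the root-mean-square difference of mean-centred log2(CPM + 1) values. For Guca2a they were Slc3a1, a subunit of the cystine transporter (0.23), Slc51b, a subunit of the basolateral bile acid exporter (0.33), and Angptl7 (0.42). Slc3a1 stood at 22.8, 37.5 and 25.6 CPM in propyzamide, against 1.24 and 2.27 CPM in vehicle, and like Guca2a was highest in propyzamide replicate 2. In vehicle replicates 1 and 2, 1 count equalled 0.414 and 0.567 CPM, so the vehicle values of Slc3a1 rest on few counts. For Guca2b they were Oip5 (0.16), Ncapg (0.22) and Dsc2 (0.22), for Gucy2c Atg5 (0.04), Ube2k (0.04) and Txndc17 (0.05), and for Prkg2 Tuba1a (0.28), Pfn2 (0.31) and Zcchc18 (0.32). Oip5 (0 to 4.08 CPM over the libraries) and the vehicle values of Slc51b (2.07 and 1.14 CPM) and Zcchc18 (0.827 and 1.70 CPM) also rest on few counts. At such levels the added 1 shrinks log2 differences. The likenesses are descriptions over 5 libraries that share the same depth and group differences.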

How the data were processed

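Colon RNA in 5 libraries was analysed, per the labels' protocols extracted with Trizol and made into SMART-Seq2 libraries, which amplify full-length cDNA. The authors deposited, per transcript, RSEM's expected count, TPM, FPKM and isoform percent, per the file headers; FPKM and isoform percent were not used. The submitters' processing notes name RSEM, kallisto and GRCm38 but neither versions nor what each did; strand use is not given in the sources used here. Reads shared by alike transcripts are divided by RSEM's model.

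Counts and TPM of 142647 transcripts were summed per gene (symbols and coordinates from GENCODE M21) and counts rounded. Totals were 1573700 to 2706885 per library, and 1 count equalled 0.340 to 0.609 CPM. Floors (3 counts over a group) and intervals cover counting error only, and reads carry no molecular identifiers. Genes were tested with edgeR 4.0.16 in R 4.3.3 (filterByExpr, TMM, quasi-likelihood test, Benjamini-Hochberg adjustment over all genes, threshold 0.05, group as the only term). DESeq2 1.42.0 and limma 3.58.1 on log2(TPM + 1) and log2(TPM + 0.1) were alternatives. Background came from counts per kilobase of 1466 protein-coding olfactory and vomeronasal receptor genes. No libraries were duplicates (chi-square per degree of freedom 16.0 to 31.6).

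The members, lists and tests were chosen with earlier results of these data known. Genes named were the members, listed genes past the threshold and a fixed set besides, the 3 most alike profiles per member, genes within 200 kb of Guca2a and the most abundant markers; the other genes named were chosen after their values were seen. A few listed items are not reported here and were left out of the lists and counts. Nothing in the labels says that libraries of a group came from separate mice, and p-values reflect only the library-to-library spread.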

Additional observations from a re-analysis of the deposited data

How the results depend on the processing

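All 4 members kept a positive log2 fold change in every alternative run. Guca2a ranged from 3.14 to 3.72 over 17 alternatives, with 3.19 without scaling beyond library size and 3.14 and 3.15 in limma on log2(TPM + 1) and log2(TPM + 0.1). In these 3 settings Gucy2c stood at 0.10, 0.17 and 0.19, and Prkg2 in the limma settings at 0.87 and 1.22; the median of all genes was then -0.38, -0.39 and -0.47, against -0.02 in the main test, and -0.14 with upper-quartile scaling and -1.14 without a filter. Leaving out libraries gave 0.35 to 2.34 for Guca2b. The Guca2b to Gucy2c log2 ratio then ranged from -0.24 to 1.59, being -0.24 without vehicle replicate 2. Relative to epithelial markers and with background subtracted, alternatives chosen after seeing the data, Guca2a stood at 3.41 and 3.59. Prkg2 has no value with background over the longest transcript subtracted, because its vehicle level became 0, and stood at 4.38 with background over the TPM-weighted length subtracted. In vehicle that length itself rests on how the few Prkg2 counts were assigned to transcripts.

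Over all genes, 83 rose and 146 fell. The counts were 260 and 305 with DESeq2, 450 and 877 without a filter, 40 and 237 with limma on log2(TPM + 0.1) and 324 and 315 with the replicate block. They were 79 and 235 with upper-quartile scaling, 87 and 484 without scaling, 59 and 89 with 10 CPM in 2 libraries, 66 and 424 with limma on log2(TPM + 1) and 104 and 258 with rRNA-like and mitochondrial genes removed. Leaving out single libraries gave 14 to 214 higher and 20 to 285 lower genes: 214 and 285 without propyzamide replicate 1, 31 and 47 without propyzamide replicate 3, 14 and 22 without vehicle replicate 1, and 35 and 20 without vehicle replicate 2. For the cyclic GMP list, 5 rose and 2 fell without a filter, 1 rose in each limma setting, and 2 fell in limma on log2(TPM + 1), without scaling and with the replicate block, against 2 and 0. Leaving out single libraries gave 1 to 4 higher and 0 to 1 lower. Leaving out a vehicle library leaves 1, so those fits hold no spread within vehicle. The causes were not tested. The labels do not say whether same-numbered libraries were paired. Deviations from the group mean of same-numbered libraries correlated at 0.171 and 0.148. With 2 vehicle libraries these deviations mirror each other, so the swapped pairs give -0.171 and -0.148 and the values cannot decide it. With the block Guca2a stood at 3.71, Guca2b at 1.30, Gucy2c at 0.49 and Prkg2 at 2.52. Depth limits Prkg2, with 3 counts per vehicle library, and the Gucy2c transcripts.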
